A study of Mus musculus with 9 samples.

Results

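Fbxl13, Prss50, Pdzph1, Ptpn14, Samd14, Fam187b, Fam161b, Parm1 and Atp1b2 are 9 protein-coding genes, of 19454 genes listed, whose transcripts were found almost wholly in the control libraries of mouse haematopoietic stem cells (HSCs). They were chosen by their low levels in the 2 treated groups relative to control, among the largest such differences of all genes, so those differences are described here without a test. Each of 9 libraries was made from 1500 FACS-sorted marrow HSCs of wild-type mice, with polyadenylated RNA copied to cDNA and enriched in 12 PCR cycles. In the first treated group (3 libraries, called spermidine below) the mPFC and PAG brain regions were inhibited chemogenetically and spermidine, a polyamine, was supplemented. In the second (3 libraries, called inhibition) the same brain regions were inhibited with no supplement, and in the control group (3 libraries) no brain intervention is named. The labels give no age, sex, sort markers, batch or animal of origin for a library, and the spread on which the p-values rest is therefore that between libraries, which may be technical.

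The 9 genes do not belong to 1 pathway. Several are best known outside blood. Fbxl13 encodes an F-box protein with leucine-rich repeats that is also a subunit of the nexin-dynein regulatory complex, the link between doublet microtubules in motile cilia and sperm tails. Prss50 encodes a protease-like protein made mainly in the testis, and Fam161b is the close relative of Fam161a, a protein of centrioles and the photoreceptor cilium. Atp1b2 encodes a beta subunit of the sodium pump known in brain as an adhesion molecule on glia, and Parm1 a mucin-like membrane protein named after its regulation in the prostate. Samd14 and Ptpn14 have roles closer to stem cells. In the mouse, Samd14 is a GATA2 target that promotes Kit signalling in stem and progenitor cells and binds actin capping protein. Ptpn14 is a phosphatase that binds YAP and restrains it in the Hippo pathway. Pdzph1, named for its PDZ and pleckstrin homology domains, and Fam187b, a membrane protein with an immunoglobulin-like domain, are little studied.

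The genes lie at separate places on 7 chromosomes (mm10, GENCODE M21 gene bounds). Fbxl13 (ENSMUSG00000048520) lies at chr5:21483847-21645634 on the minus strand and Parm1 (ENSMUSG00000034981) at chr5:91517615-91626894 on the plus strand. Samd14 (ENSMUSG00000047181) lies at chr11:95009879-95026087 on the plus strand and Atp1b2 (ENSMUSG00000041329) at chr11:69599736-69605942 on the minus strand. Prss50 (ENSMUSG00000048752) lies at chr9:110857967-110864629, Ptpn14 (ENSMUSG00000026604) at chr1:189728268-189876695 and Fam187b (ENSMUSG00000046826) at chr7:30973790-30989726, all on the plus strand. Pdzph1 (ENSMUSG00000024227) lies at chr17:58878808-58991375 and Fam161b (ENSMUSG00000021234) at chr12:84345309-84361833, both on the minus strand.

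Promoter sequences of 4 of the genes are shown as examples, from the lowest G+C content among the genes' windows, 33.7% for Pdzph1, to the highest, 78.3% for Ptpn14. Each runs from 250 bases before to 50 bases after the annotated start, on the gene's own strand, from RefSeq on GRCm38.p6. Windows were used for 7 of the 9 genes, all but Samd14 and Atp1b2. Capitals mark matches, on either strand and merged where they overlap, to the GATA forms AGATAA and TGATAA, the ETS core CCGGAA, the SP box GGGCGG, the CCAAT box, the RUNX core TGTGGT and the RFX element GTTGCC. The windows are chr5:21645556-21645855 (minus strand) for Fbxl13, chr17:58991326-58991625 (minus) for Pdzph1, chr12:84361779-84362078 (minus) for Fam161b and chr1:189728018-189728317 (plus) for Ptpn14.
Fbxl13: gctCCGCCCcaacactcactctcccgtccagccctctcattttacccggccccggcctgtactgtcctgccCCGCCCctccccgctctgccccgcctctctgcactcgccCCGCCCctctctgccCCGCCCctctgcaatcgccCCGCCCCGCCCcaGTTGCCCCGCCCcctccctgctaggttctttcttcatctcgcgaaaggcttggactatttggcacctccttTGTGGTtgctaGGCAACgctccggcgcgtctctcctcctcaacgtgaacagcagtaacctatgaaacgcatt
Pdzph1: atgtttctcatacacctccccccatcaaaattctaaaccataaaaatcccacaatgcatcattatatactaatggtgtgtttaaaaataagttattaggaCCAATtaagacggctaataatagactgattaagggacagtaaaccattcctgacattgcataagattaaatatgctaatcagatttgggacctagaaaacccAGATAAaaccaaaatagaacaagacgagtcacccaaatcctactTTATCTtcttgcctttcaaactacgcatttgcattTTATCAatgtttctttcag
Fam161b: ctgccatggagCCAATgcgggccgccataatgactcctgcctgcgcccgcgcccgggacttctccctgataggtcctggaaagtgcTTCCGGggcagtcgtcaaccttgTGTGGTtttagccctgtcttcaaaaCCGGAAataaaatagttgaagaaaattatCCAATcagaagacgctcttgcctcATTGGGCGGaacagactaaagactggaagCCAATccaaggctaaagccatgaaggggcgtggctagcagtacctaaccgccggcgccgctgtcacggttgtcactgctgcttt
Ptpn14: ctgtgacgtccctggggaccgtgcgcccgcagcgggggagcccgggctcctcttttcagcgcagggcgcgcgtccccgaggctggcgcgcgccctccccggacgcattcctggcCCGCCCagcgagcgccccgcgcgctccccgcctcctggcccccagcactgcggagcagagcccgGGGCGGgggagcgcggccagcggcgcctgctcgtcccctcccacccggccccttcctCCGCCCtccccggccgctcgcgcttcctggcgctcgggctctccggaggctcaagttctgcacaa

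The Ptpn14 window holds 40 CpG dinucleotides at 78.3% G+C and the Fbxl13 window 22 at 65.0%, against medians of 7 and 52.7% over all 32851 mouse promoter windows. The Pdzph1 window holds 3 at 33.7%. AGATAA occurs in 11.2% of all windows and among the 7 genes in Pdzph1 alone, where it is found 2 times near the start. TGATAA, in 9.05% of all windows, is also present in Pdzph1 alone. GGGCGG, in 35.7% of all windows, is found in those of Fbxl13, Ptpn14 and Fam161b, and GTTGCC, in 12.5%, in that of Fbxl13. CCGGAA, in 14.9%, is found in the Fam161b window. CCAAT, in 37.4%, is found in those of Fam161b, Fam187b and Pdzph1, and TGTGGT, in 16.8%, in those of Fam161b, Fam187b and Fbxl13. None of the 7 genes has TATAAA (13.6% of all windows) or CAGATG (17.2%), and TGCGCA (7.76%) is found in a Fam187b window. No motif was present in the windows of all 7 genes.

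Library totals were 16096276 to 25360256 estimated counts, so 3 counts, the limit that a count of 0 allows, correspond to 0.117 to 0.184 CPM (library-size-scaled counts, with TMM factors). That limit and the intervals below allow for counting error alone, since PCR makes many copies of 1 molecule. A list of 16 genes was read as HSC markers. Its summed level was 710 to 716 CPM in spermidine, 639 to 650 CPM in inhibition and 517 to 533 CPM in control libraries. The list includes Cd34, Flt3, Cd48 and Cd27, which are also found on later progenitors, so its sum and counts cannot settle the HSC label. Gene by gene the groups differed more than the sums. In inhibition against control 11 of the 16 were higher and 4 lower by edgeR, where 36.2% and 36.1% of all genes were. The median log2 fold change of the 16 was 1.58. Kit averaged 46.4 CPM in spermidine, 36.5 CPM in inhibition and 43.3 CPM in control libraries. Procr, a surface marker of HSCs, averaged 7.58 CPM in spermidine and 4.10 CPM in inhibition but 0.125 CPM in control libraries, and Ly6a (Sca-1) 94.4, 83.5 and 6.20 CPM in the same order. Slamf1 (CD150) ran the other way, at 13.7 CPM in spermidine, 17.6 CPM in inhibition and 104 CPM in control libraries. The Y-linked genes, chosen after their values were seen, did not share 1 pattern. Ddx3y and Eif2s3y averaged 14.7 and 20.1 CPM in spermidine, 1.56 and 1.73 CPM in inhibition, and 0.0755 and 0.195 CPM in control libraries. Uty ran the other way, at 7.39 CPM in spermidine, 4.18 CPM in inhibition and 88.5 CPM in control libraries, and Kdm5d averaged 10.1, 5.21 and 13.7 CPM in the same order. The part of HSC surface markers and of Y-linked transcripts in the results below was not tested. In such libraries fewer cells of a type and less RNA per cell cannot be told apart.

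Across the 9 genes, no library of any group was at 0 counts. Single values ran from 3 to 101.4 estimated counts in spermidine libraries, from 1 to 64.3 in inhibition libraries and from 181.0 to 1530 in control libraries. Of 27 values per group, 2 in spermidine, 5 in inhibition and 0 in control libraries were at or under 3 counts. The summed level of the 9 genes was 8.16 to 9.15 CPM in spermidine, 6.57 to 7.75 CPM in inhibition and 221 to 234 CPM in control libraries.

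**Figure D1:**
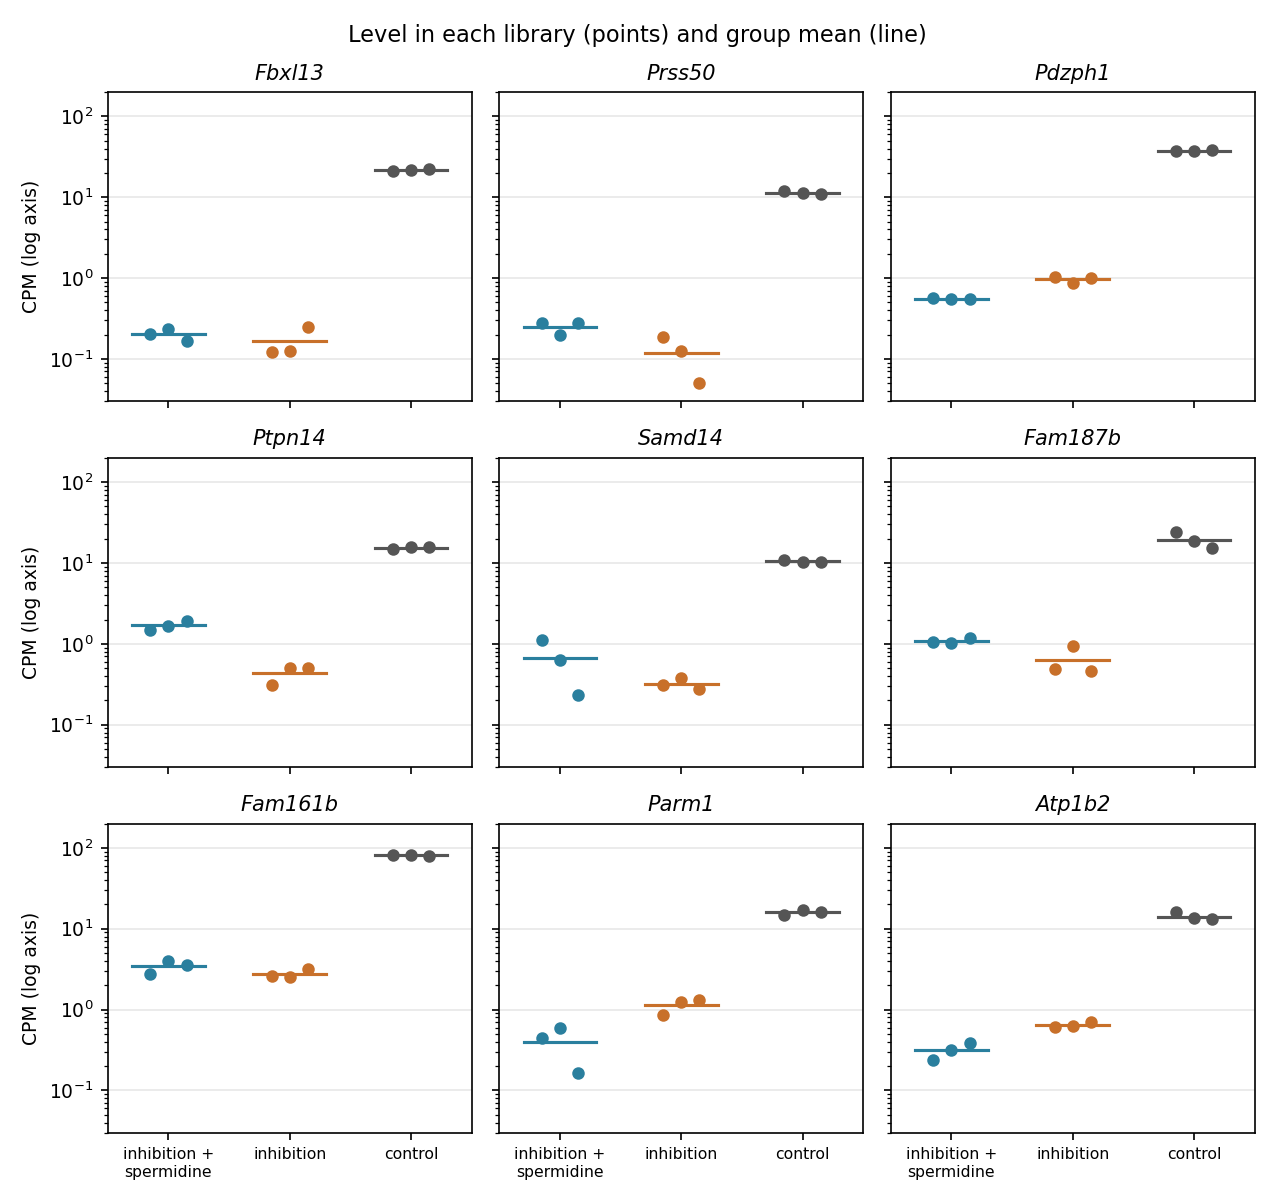
Level of each of the 9 genes in CPM (log axis) in spermidine, inhibition and control libraries, 3 per group, with points for libraries and a line for the group mean. For each gene all 3 control points lie above all 6 others, with control means from 10.5 CPM for Samd14 to 80.9 CPM for Fam161b.

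Fbxl13, the cilium and F-box gene, had the fewest transcripts left relative to control. It had 5, 6 and 3 counts in spermidine libraries, 2, 3 and 5 counts in inhibition libraries, and 345, 408 and 437 counts in control libraries. Both treated groups sit at about the level of the 3-count limit, and their libraries overlap each other. Means were 0.201 ± 0.0344 CPM in spermidine, 0.166 ± 0.0728 CPM in inhibition and 21.8 ± 0.812 CPM in control libraries (SD, n = 3 each), and the log2 fold changes against control were -6.69 (SE 0.150) for spermidine and -6.99 (SE 0.161) for inhibition. The level left was 0.937% of control in spermidine (95% exact binomial counting interval 0.511 to 1.58%) and 0.759% in inhibition (0.363 to 1.40%). Prss50, the testis protease-like gene, had 7, 5 and 5 counts in spermidine, 3, 3 and 1 in inhibition, and 198, 210 and 210 in control libraries. All 3 spermidine libraries were above all 3 inhibition libraries in CPM. The log2 fold changes were -5.48 (SE 0.184) for spermidine against control and -6.54 (SE 0.218) for inhibition, leaving 2.19% (1.27 to 3.54%) and 1.02% (0.410 to 2.12%) of the control level in that order.

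Pdzph1, the PDZ and pleckstrin homology gene, combined a high control level with a small remainder. It had 14, 14 and 10 counts in spermidine, 17, 21 and 20 counts in inhibition, and 617, 694 and 737 counts in control libraries. The libraries within each group lay close together, with coefficients of variation of 1.51% in spermidine, 9.20% in inhibition and 1.11% in control. Counting error alone would give a wider spread at these counts, so the closeness does not measure precision. Relative to control, the log2 fold changes were -6.06 (SE 0.0993) for spermidine and -5.28 (SE 0.0930) for inhibition, leaving 1.48% (1.04 to 2.03%) and 2.56% (1.94 to 3.32%). Fam161b, the relative of a centriolar protein, was the most abundant of the 9 in each group per length as well as in counts. It had 68.1, 101.4 and 65.0 estimated counts in spermidine, 42.9, 60.7 and 64.3 in inhibition, and 1364, 1514 and 1530 in control libraries. Its remainder was well above the counting limit in each treated library, and the 2 treated groups overlapped. Log2 fold changes against control were -4.56 (SE 0.0824) for spermidine and -4.86 (SE 0.0878) for inhibition, leaving 4.23% (3.69 to 4.82%) and 3.44% (2.93 to 4.02%).

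Ptpn14, the YAP-binding phosphatase, kept the largest remainder of the 9 in spermidine libraries. It had 37, 42 and 35 counts in spermidine, 5, 12 and 10 counts in inhibition, and 245, 291 and 305 counts in control libraries. The 3 groups did not overlap. Its log2 fold changes against control were -3.20 (SE 0.113) for spermidine and -5.09 (SE 0.150) for inhibition, leaving 10.8% (8.80 to 13.1%) and 2.90% (1.90 to 4.25%). Samd14, the GATA2 target, was uneven among spermidine libraries. It had 28.0, 16.2 and 4.19 estimated counts in spermidine, 5.03, 9.06 and 5.52 in inhibition, and 181.0, 190.4 and 201.5 in control libraries. Spermidine replicate 3 was below all 3 inhibition libraries and spermidine replicate 1 far above them. Against control, Samd14 had log2 fold changes of -3.90 (SE 0.218) for spermidine and -4.96 (SE 0.260) for inhibition, leaving 6.67% (4.86 to 8.96%) and 3.15% (1.91 to 4.92%).

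Fam187b was the gene whose control libraries differed most from each other. It had 26.5, 26.4 and 21.1 estimated counts in spermidine, 8.04, 22.7 and 9.26 in inhibition, and 398.6, 352.3 and 298.4 in control libraries. The control coefficient of variation was 22.7%, against 1.11 to 10.6% for the other 8 genes. Log2 fold changes against control were -4.16 (SE 0.196) for spermidine and -4.86 (SE 0.222) for inhibition, leaving 5.62% (4.38 to 7.11%) and 3.44% (2.45 to 4.72%). Estimated counts of Samd14, Fam187b and Fam161b were not whole numbers in any of the 9 libraries, so reads that fit more than 1 gene or transcript may enter them, while those of the other 6 genes were whole throughout.

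Parm1 and Atp1b2, the mucin-like protein and the pump subunit, were lowest in spermidine libraries. Parm1 had 11, 15 and 3 counts in spermidine, 14, 30 and 26 counts in inhibition, and 245, 317 and 315 counts in control libraries. Atp1b2 had 6, 8 and 7 counts in spermidine, 10, 15 and 14 counts in inhibition, and 262, 251 and 255 counts in control libraries. For both genes all spermidine libraries were below all inhibition libraries in CPM. Log2 fold changes against control were -5.23 (SE 0.182) for spermidine and -3.79 (SE 0.155) for inhibition for Parm1, and -5.50 (SE 0.170) and -4.44 (SE 0.152) in the same order for Atp1b2. Parm1 kept 2.63% (1.75 to 3.81%) of its control level in spermidine and 7.21% (5.57 to 9.20%) in inhibition, and Atp1b2 2.18% (1.34 to 3.35%) and 4.59% (3.24 to 6.33%).

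**Figure D2:**
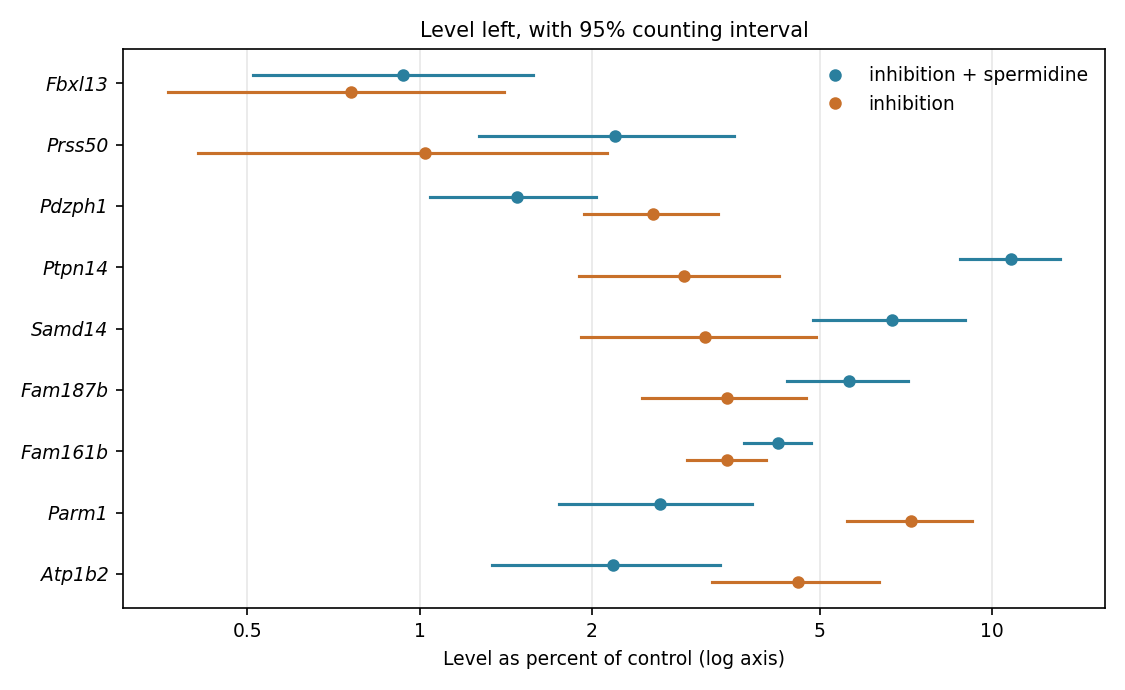
Level left as percent of the control level (log axis) for each gene, in spermidine and inhibition libraries pooled over 3 libraries each, with bars for the 95% exact binomial counting interval. The remainder runs from 0.937% for Fbxl13 to 10.8% for Ptpn14 in spermidine and from 0.759% for Fbxl13 to 7.21% for Parm1 in inhibition.

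The comparisons with control were the basis of the choice, so the following counts place the 9 genes and support nothing. In inhibition against control 8 of the 9 had a log2 fold change of -4 or below, as did 0.38% of 14461 genes tested, and in spermidine against control 7 of 9, as did 0.284%. All 9 had libraries below all control libraries in both comparisons, as did 37.1% of genes for inhibition and 37.7% for spermidine. Among the 8366 genes with a control mean of at least 5 CPM, Fbxl13, Prss50, Pdzph1, Ptpn14, Samd14, Fam187b and Fam161b held ranks 2, 3, 5, 6, 7, 8 and 9 by fall in inhibition against control. In spermidine against control the same genes held ranks 2, 7, 4, 93, 35, 26 and 20. Parm1 and Atp1b2 held ranks 35 and 20 for inhibition and ranks 10 and 6 for spermidine. The 2 comparisons share the 3 control libraries.

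The control share, the control mean as a percent of the sum of the 3 group means in CPM, gives 1 scale for how far a gene is confined to control libraries. It was 98.3% for Fbxl13, 96.8% for Prss50, 96.1% for Pdzph1, 93.7% for Atp1b2, 92.9% for Fam161b, 91.9% for Fam187b, 91.4% for Samd14, 91.3% for Parm1 and 87.9% for Ptpn14. The median over the 8366 genes was 35.3%, and 24 genes, or 0.287%, reached 90%, a level that 8 of the 9 genes pass and Ptpn14 just misses. The 8 other genes with the highest control share, by a fixed rule that leaves out unnamed gene models, were Gml2 (96.7%), Car1 (96.6%), Pf4 (93.0%), Ptk2 (92.7%), Iho1 (92.6%), Tspo2 (92.1%), S100a2 (92.1%) and Iars (92.0%). Car1, an erythroid carbonic anhydrase, averaged 26.0 CPM in spermidine, 29.7 CPM in inhibition and 1596 CPM in control libraries. Pf4, a platelet chemokine, averaged 97.2, 104 and 2671 CPM in the same order, and Ptk2, focal adhesion kinase, 92.6, 104 and 2506 CPM. Iho1, a meiotic recombination protein, averaged 7.26 CPM in spermidine, 8.53 CPM in inhibition and 198 CPM in control libraries. Iars, the isoleucine-tRNA synthetase of the cytosol, averaged 0.322, 0.288 and 6.98 CPM in the same order. The genes with this pattern include products known from erythroid cells, platelets, germ cells and all cells.

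**Figure D3:**
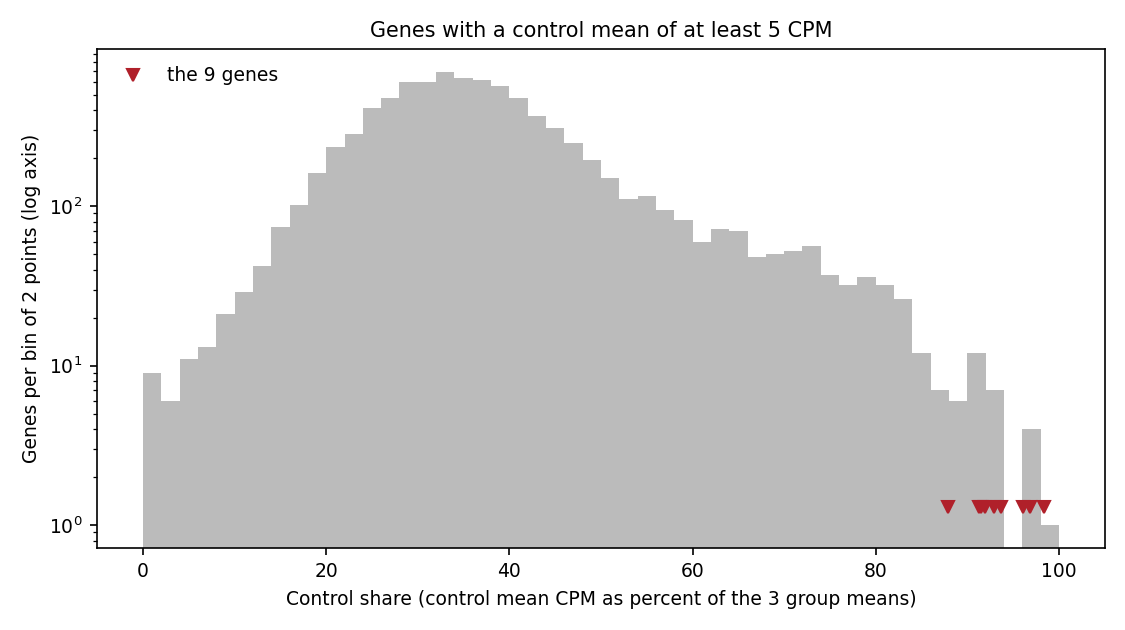
Distribution of the control share over 8366 genes with a control mean of at least 5 CPM (bars, bins of 2 points, log axis), with triangles for the 9 genes. The genes lie between 87.9% and 98.3%, where the distribution is nearly empty, and its median is 35.3%.

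The genes were also compared between spermidine and inhibition. This contrast did not choose them directly, but it is not free of the choice: by rank, Prss50, Ptpn14, Samd14, Fam187b and Fam161b stand out more for low inhibition levels, which leans towards higher spermidine values. Pdzph1, Parm1 and Atp1b2 stand out more for low spermidine levels, which leans the other way, and Fbxl13 holds the same rank in both comparisons with control. By edgeR's quasi-likelihood test with Benjamini-Hochberg adjustment over all genes, 5 of the 9 were called, against 58.1% of all genes tested, so the count says nothing particular to them. Of the 5, 2 were higher (Ptpn14 and Samd14) and 3 lower (Pdzph1, Parm1 and Atp1b2), against 29.1% and 28.9% of all genes. The Samd14 call rests on a filter passed only through the control libraries and is not read as a result. All 9 passed the filter on low counts with the control libraries included. Over the 6 treated libraries alone 6 of 9 pass it, and Fbxl13, Prss50 and Samd14 do not, so their values between the treated groups rest on very few counts and are given only as a description. In a fit of those 6 libraries alone 4 of the 6 genes were called.

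For every gene called here the choice leans in the direction of the call, so the adjusted p-values are no independent support. Ptpn14 was 3.70-fold higher in spermidine than in inhibition libraries, and higher in each of the 3 libraries. Its log2 fold change was 1.89 (SE 0.226, edgeR adjusted p = 2.718e-06). Samd14, which fails the filter over the treated libraries, had a log2 fold change of 1.06 (SE 0.432), with libraries that overlapped. Without spermidine replicate 1 the Samd14 value was 0.45. Parm1 was 2.71-fold lower in spermidine, with a log2 fold change of -1.44 (SE 0.306, edgeR adjusted p = 0.000784). Atp1b2 was lower at -1.06 (SE 0.319, edgeR adjusted p = 0.0104), and without spermidine replicate 1 at -0.90 (edgeR adjusted p = 0.0560). Pdzph1 was lower at -0.79 (SE 0.206, edgeR adjusted p = 0.0160). For Parm1, Atp1b2 and Pdzph1 all 3 spermidine libraries were below all 3 inhibition libraries, and for Ptpn14, Prss50 and Fam187b all 3 were above, as 62.8% of all genes did in either direction. Fam187b had a log2 fold change of 0.71 (SE 0.378, edgeR adjusted p = 0.121) and Fam161b 0.30 (SE 0.142, 0.0857), neither past the threshold. Prss50, at 1.06 (SE 0.489), and Fbxl13, at 0.29 (SE 0.444), are described only. At these low counts a difference of that size was not detectable for Fbxl13.

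Scaling bears on these calls. With library totals in place of TMM factors the median of all genes moved up by 0.261 on the log2 scale, and 81.1% of all calls were higher in spermidine, against 50.2% with TMM factors. Relative to that shift the gene values kept their order, but Pdzph1 at -0.53 (edgeR adjusted p = 0.105) and Atp1b2 at -0.80 (0.0506) were then not called. Fam187b and Fam161b were called higher, as was Prss50, which fails the filter over the treated libraries. With library totals 6 of the 9 genes were called, 5 higher and 1 lower. The directions of Ptpn14 and Parm1 and their calls held under both scalings.

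**Figure D4:**
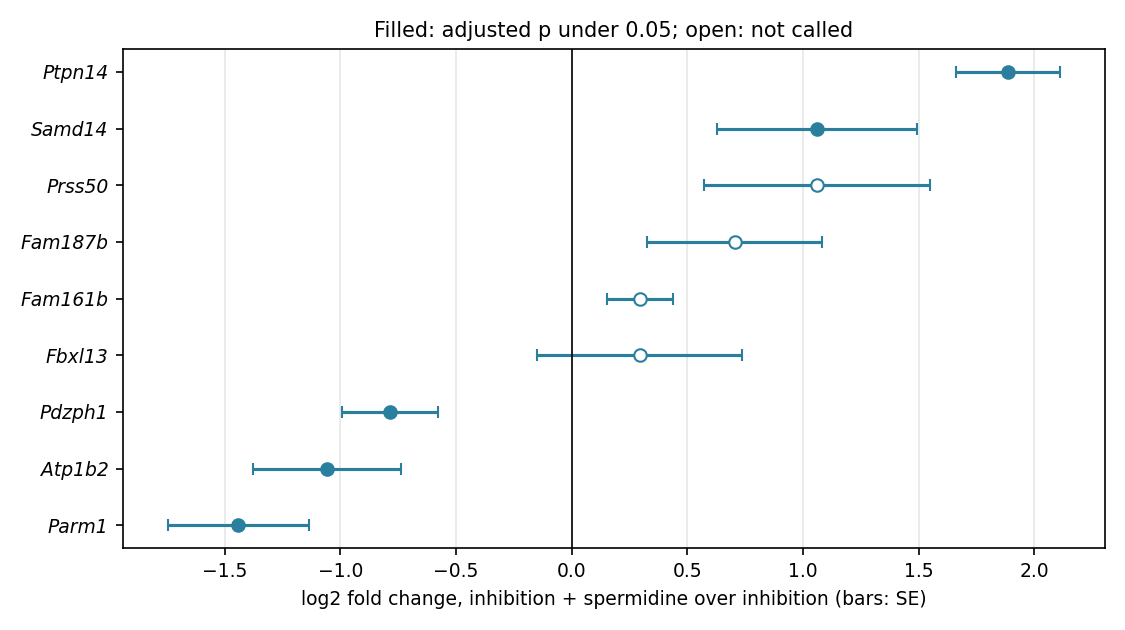
Log2 fold change of each gene in spermidine over inhibition libraries, with bars for the standard error, filled where the edgeR adjusted p was under 0.05. Ptpn14 lies highest at 1.89 and Parm1 lowest at -1.44. Samd14, Prss50 and Fbxl13 fail the filter over the treated libraries, so their points are descriptive, the filled one of Samd14 included.

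The relatives and pathway partners of the 9 genes were read from gene lists, leaving out the 9 themselves. Against them stand 36.2% of all genes called higher and 36.1% called lower in inhibition against control. Levels between genes are given in TPM, which is scaled for length. Fbxl13 stands in the nexin-dynein regulatory complex, of whose other 6 tested genes 1 was higher and 4 lower in inhibition against control, with a median log2 fold change of -0.62 against 0.02 for all genes. Ccdc153, a further subunit, averaged 7.37 TPM in spermidine, 4.80 TPM in inhibition and 37.5 TPM in control libraries, a log2 fold change of -3.06 (SE 0.0815, edgeR adjusted p = 2.035e-15) for inhibition. Drc3 was lower too, at -2.79 (edgeR adjusted p = 1.166e-08). Of 18 tested genes in a wider list of motile cilia 5 were higher and 2 lower in inhibition against control. In spermidine against control 12 were higher and 2 lower, where 41% and 37.1% of all genes were. In spermidine against inhibition 9 of them were higher and 0 lower with TMM factors, by edgeR, where 29.1% and 28.9% of all genes were. Library totals would move the median of all genes up by 0.263 and 0.261 in these last 2 comparisons, and the list was not rerun with them. The lower ones in inhibition against control include Rfx2, a transcription factor of cilium genes, at -2.70 (edgeR adjusted p = 4.112e-13). It does not stand for the wider list, whose median log2 fold change in that comparison was 0.34. Fbxl13 is also 1 of 18 listed genes of the FBXL family, of whose summed TPM it made up 0.165% in spermidine, 0.117% in inhibition and 16.7% in control libraries. Of 20 other genes of F-box proteins and their ligase, 5 were higher and 11 lower in inhibition, among them Kdm2a at -1.39 (edgeR adjusted p = 2.58e-13) and the iron-sensing Fbxl5 at 1.58 (1.71e-14).

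Prss50 made up 7.15% of the summed TPM of 8 listed testis serine proteases in spermidine, 8.42% in inhibition and 90.1% in control libraries. Only 3 others could be tested, with 1 higher and 1 lower in inhibition against control. Fam161b made up 60.6% of the FAM161 pair in spermidine, 55.2% in inhibition and 97.8% in control libraries. Its partner Fam161a was at 0.732 ± 0.256, 0.574 ± 0.138 and 0.443 ± 0.0409 TPM in the same order (SD, n = 3 each), with a log2 fold change of 0.27 for inhibition against control (edgeR adjusted p = 0.396). Of 14 other genes of the centriole list 5 were higher and 3 lower, with a median log2 fold change of 0.03. Poc5, of the inner scaffold of centrioles, was among the 3 lower, at -2.16 (edgeR adjusted p = 1.364e-14).

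Ptpn14 has 1 close relative, Ptpn21, which was at 0.701 TPM in spermidine, 0.542 TPM in inhibition and 0.437 TPM in control libraries, against 0.268, 0.0636 and 2.59 TPM for Ptpn14. Ptpn14 was thus the more abundant of the pair in control libraries and the less abundant in both treated groups. Of 24 tested genes of the Hippo pathway 10 were higher and 5 lower in inhibition against control, and 15 higher and 6 lower in spermidine against control, where 41% and 37.1% of all genes were. In that last comparison library totals in place of TMM factors would move the median of all genes up by 0.263 on the log2 scale. The coactivator Yap1, which Ptpn14 binds, averaged 0.878 TPM in spermidine, 0.729 TPM in inhibition and 5.38 TPM in control libraries (inhibition against control -2.93, edgeR adjusted p = 8.272e-14). Its partner coactivator Wwtr1 (TAZ) ran the other way, at 0.355, 0.257 and 0.0192 TPM (3.62, edgeR adjusted p = 9.119e-08), as did the kinase Lats2 (2.29, 3.007e-10). Between spermidine and inhibition Yap1 had a log2 fold change of -0.18 (edgeR adjusted p = 0.291). Of 14 other non-receptor tyrosine phosphatases 5 were higher and 3 lower in inhibition against control.

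Samd14 made up 8.72% of the summed TPM of Samd14 and the neurabins Ppp1r9a and Ppp1r9b in spermidine, 6.14% in inhibition and 54.2% in control libraries. Of 22 other genes of the GATA and Kit network 6 were higher and 14 lower in inhibition against control, with a median log2 fold change of -0.53. Gata2, the regulator of Samd14, averaged 4.95 TPM in spermidine, 2.69 TPM in inhibition and 16.0 TPM in control libraries, a log2 fold change of -2.57 for inhibition against control (edgeR adjusted p = 1.626e-15). It was higher in spermidine than in inhibition, at 0.61 (edgeR adjusted p = 5.197e-06). Epor, the erythropoietin receptor, and Klf1, an erythroid transcription factor, were lower in inhibition by more, at -4.26 (edgeR adjusted p = 3.314e-12) and -3.94 (2.843e-16). Capza1, a subunit of the capping protein that Samd14 binds, was higher at 1.29 (edgeR adjusted p = 1.473e-15).

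Atp1b2 was a minor beta subunit in every group. Its share of the beta subunits' summed TPM was 0.106% in spermidine, 0.180% in inhibition and 5.85% in control libraries. Atp1b3 made up most of the rest, at 81.0, 86.0 and 57.2 TPM in the same order. Atp1b1 was at 1.34 TPM in spermidine, 1.28 TPM in inhibition and 0.451 TPM in control libraries, so Atp1b2 at 3.58 TPM exceeded it in control libraries and at 0.0877 and 0.157 TPM was below it in spermidine and inhibition. Of 11 other mucin-like membrane proteins, the list that Parm1 stands in, 8 were higher and 1 lower in inhibition, with a median log2 fold change of 1.29. Emcn and Cd34, both found on stem and endothelial cells, were higher at 3.59 (edgeR adjusted p = 1.998e-14) and 2.59 (5.582e-16), while Parm1 was lower. Of 17 PDZ scaffold genes beside Pdzph1, 8 were higher and 6 lower, with a median log2 fold change of 0.47. The lower ones include Pdzd2 at -2.19 (edgeR adjusted p = 2.052e-14) and Dlg4 at -1.93 (1.544e-14).

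**Figure D5:**
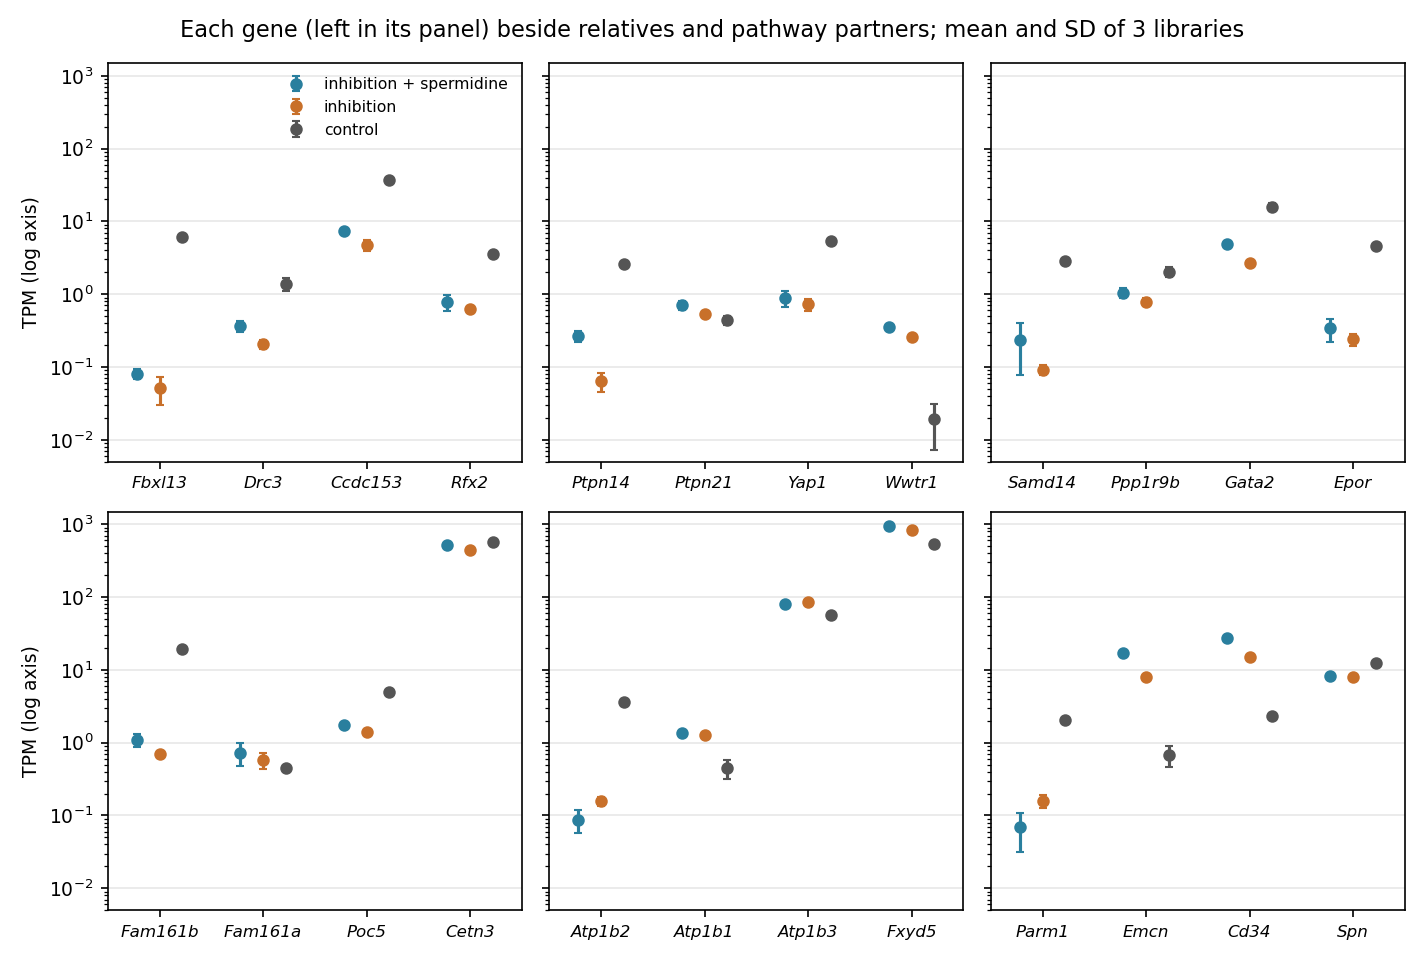
Mean level in TPM (log axis) of 6 of the genes, each at the left of its panel, beside relatives and pathway partners in spermidine, inhibition and control libraries, with bars for the SD of 3 libraries. Ptpn14 and Atp1b2 lie above Ptpn21 and Atp1b1 in control libraries and below them in treated ones, and Wwtr1 and Emcn are higher in treated than in control libraries.

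Genes next to the 9 on the chromosome were examined because the labels state no strand-specific step, so that reads of genes overlapping on opposite strands cannot be told apart. Of 16 tested coding genes that overlap or flank the 9, 4 were higher and 9 lower in inhibition against control, where 36.2% and 36.1% of all genes were. The median log2 fold change of the 16 was -0.32, against 0.02 for all genes. None of the 16 had a control share above 78.0%. Zfp410, a zinc finger gene whose end faces that of Fam161b 1586 bases away on the opposite strand, had that share. It averaged 116 CPM in spermidine, 176 CPM in inhibition and 1032 CPM in control libraries, a log2 fold change of -2.55 (edgeR adjusted p = 2.561e-17) for inhibition. Lrrc17, which lies within the bounds of Fbxl13 on the opposite strand, averaged 18.5, 14.1 and 71.8 CPM in the same order (-2.33, edgeR adjusted p = 1.434e-13). Armc10, which starts 179 bases from Fbxl13, averaged 21.8 CPM in spermidine, 18.1 CPM in inhibition and 18.9 CPM in control libraries (-0.05, edgeR adjusted p = 0.501). Coq6, which overlaps Fam161b on the opposite strand, was lower by less, at -0.64 (edgeR adjusted p = 9.546e-08). Both neighbours of Samd14, Ppp1r9b on the same strand and Pdk2 171 bases away on the other, were lower, at -1.42 (edgeR adjusted p = 1.425e-07) and -1.56 (2.282e-06).

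Markers of other cell types were read in the same libraries. Megakaryocyte and platelet markers summed to 217 to 231 CPM in spermidine, 205 to 215 CPM in inhibition and 3271 to 3315 CPM in control libraries, and 14 of 15 were lower and 0 higher in inhibition against control. Erythroid markers summed to 1241 to 1295, 1341 to 1378 and 3730 to 3786 CPM in the same order, with 6 of 15 higher and 9 lower. Neutrophil granule markers ran the other way, at 22758 to 23427 CPM in spermidine, 62594 to 64439 CPM in inhibition and 6309 to 6556 CPM in control libraries, with 15 of 15 higher in inhibition against control. In inhibition against control, where 36.2% of all genes were higher and 36.1% lower, 9 of 10 B and plasma cell markers were higher and 0 lower, and 9 of 9 T and NK cell markers were higher. Of 10 mast cell and basophil markers 7 were higher and 3 lower, and of 10 stroma and endothelium markers 4 were higher, a share near that of all genes, and 1 lower. Their part in the levels of the 9 genes was not tested.

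The tissues in which Prss50, Fbxl13 and Atp1b2 are known were checked by their own markers. For both lists, the shares of all genes in inhibition against control were 36.2% higher and 36.1% lower. Germ cell markers summed to 11.9 to 16.1 CPM in spermidine, 14.9 to 16.0 CPM in inhibition and 16.0 to 17.4 CPM in control libraries, where 1 of 5 tested was higher and 2 lower in inhibition against control. Of 18 such markers 12 were listed, and Prm1, Prm2, Tnp1, Tnp2, Odf1 and Akap4, which define late sperm development, had no row among the genes listed. Spata18 was at 0 in control libraries, the only 1 of the 12 that was. Glia and neuron markers summed to 16.8 to 17.6 CPM in spermidine, 12.6 to 15.1 CPM in inhibition and 20.5 to 21.5 CPM in control libraries, and 1 of 6 tested was higher and 2 lower in inhibition against control. Gfap, the defining filament of astrocytes, was at 0.367 CPM in spermidine, 0.0333 CPM in inhibition and 0.0381 CPM in control libraries, and Aqp4, their water channel, at 0.0840, 0.0277 and 0.0179 CPM, all at or near 0 in control libraries. These 2 do not stand for the glia and neuron list, whose sum was highest in control libraries. Their part in the levels of the 9 genes was not tested.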

How the data were processed

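The submitters' processing notes list the build mm10 and 4 tools with no role or order: edgeR 3.24.3, HTSeq 0.10.0, STAR 2.6.1d and Trim Galore 0.6.2. The authors deposited estimated counts per gene, not scaled between libraries, and TPM for the same 9 libraries. Of the deposited estimated counts 48.2% are whole to within 1e-06, and how the fractional values arose is not given in the sources used here.

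Estimated counts were rounded and tested in R 4.3.3 with edgeR 4.0.16 (quasi-likelihood, 9 libraries in 1 fit, TMM factors, default filter on low counts keeping 14461 of 19454 genes, Benjamini-Hochberg adjustment, threshold 0.05). The scripts were tested on simulated data. Levels left are ratios of counts pooled over 3 libraries, with exact Clopper-Pearson intervals at 95%. Coordinates are GENCODE M21 bounds, which matched 19437 of the listed genes and not 17. Alternatives were RLE factors, library totals, DESeq2 1.42.0, no filter, a replicate block, the 6 treated libraries alone, limma 3.58.1 on log2(TPM + 1) and log2(TPM + 0.1), and each library left out.

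The 9 genes and the gene lists were chosen with earlier results of these data known. Other genes named were at most 5 per list with the smallest p, the close relatives of the 9 genes, their chromosomal neighbours, 8 genes with the highest control share and defining cell type markers. Ddx3y, Eif2s3y, Uty and Kdm5d fall outside that rule. Replicate libraries varied by more than counting error.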

Additional observations from a re-analysis of the deposited data

How the results depend on the processing

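No log2 fold change of the 9 genes changed sign in the alternatives run; the gene lists, neighbours and cell type markers were not rerun. Calls numbered 10467 in inhibition against control, 11293 in spermidine against control and 8396 in spermidine against inhibition, and stayed within 1.5 times of these. Leaving out each library gave 10081 to 10544, 10868 to 11598 and 7610 to 8598 calls in the same order, and 4 to 5 of the 9 genes called between spermidine and inhibition. The share of calls that were higher moved with scaling. In spermidine against inhibition it was 50.2% with TMM factors, 47.6% with RLE factors, 44.6% with DESeq2, 81.1% with library totals and 85% with limma on log2(TPM + 1). In spermidine against control it was 52.5% with TMM factors and 67.7% with library totals. Same-numbered libraries did not deviate together (r -0.0365 to 0.0526 over 9 pairs), so the numbers were not used to pair them. A fit with the replicate block called 8261, 10379 and 11209 genes for spermidine against inhibition, inhibition against control and spermidine against control, and 4 of the 9 genes, with Samd14 no longer among them.

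The settings reuse the libraries whose low values led to the choice of the genes, so they show dependence on processing only. Ptpn14 was called higher in spermidine than in inhibition in 17 of 17 settings, with adjusted p from 1.029e-07 to 0.00305 by edgeR, DESeq2 or limma. It held rank 6 by fall in inhibition against control and rank 93 in spermidine against control, so the choice itself leans that way. For Pdzph1, Parm1 and Atp1b2 the choice leans towards lower spermidine values, the direction in which they were called. Pdzph1 was called lower in 16 of 17 settings, Parm1 in 16 of 17 and Atp1b2 in 14 of 17. Samd14, which fails the filter over the treated libraries, was called in 5 of 16 settings, and those calls are not read as a result. With limma on log2(TPM + 1) Parm1 (adjusted p = 0.0929) and Atp1b2 (0.282) were not called. That pseudocount is larger than their levels in the treated groups, but also than those of Ptpn14 and Pdzph1, which were called. Its part in the lost calls was not tested. Over the 6 treated libraries alone 4 of the 6 genes that pass the filter were called. Counts of 1 to 7 in each treated library limit what Fbxl13 and Prss50 can show.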
